A study of Saccharomyces cerevisiae with 6 samples.

Results

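The genes described here are 8 yeast genes picked for large rises in the ratio of myo1Δ to wild type on these same arrays, out of 6256 genes measured: YBR116C, PHM7, MSC1, RTN2, RTC3, YNL195C, HBT1 and YGP1. They were found on the arrays by systematic name, on 11 spots. The annotation carried in the array files gave 7 of them, all but YGP1, as of unknown biological process, among 2762 genes so annotated, and YGP1 as a stress response gene. The data are 6 Agilent oligonucleotide arrays of 2 colours, on each of which RNA of a mutant competed with RNA of a wild type. On arrays 1 to 3, YJR13 (MATa, myo1Δ) was set against YJR12 (MATα, wild type), and on arrays 4 to 6, YJR6 (MATα, myo1Δ) was set against its parent MGD353-46D (MATα, wild type). In both mutants MYO1 was replaced by HIS5+, and all strains carried trp1, ura3, leu2 and his3Δ1 mutations and cycloheximide resistance. YJR12 and YJR13 were haploid segregants of a cross of YJR6 to BY4741, so each mutant stands for 1 strain made from 1 deletion. The RNA came from 3 cultures of each strain grown overnight at 26°C to an OD600 of 0.5 to 0.8. YJR6 was grown in medium without histidine, in which his3Δ1 strains lacking HIS5+ could not have grown. Medium and genotype therefore cannot be told apart on at least arrays 4 to 6. The paper names medium without histidine for mutants and complete synthetic medium for wild types, without listing strains. Read so, the same limit holds on all 6 arrays.

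MYO1 encodes the heavy chain of the type II myosin that forms the contractile ring at the bud neck, and cells without it divide and build their septum poorly. Many yeast genes of little known function belong to a broad programme that is raised by heat, osmotic stress, wall damage and lack of nutrients. In that programme the zinc finger activators Msn2 and Msn4 bind stress response elements in promoters, and protein kinase A, driven by Ras and cyclic AMP, holds them back. Of the 8 genes, PHM7 encodes a membrane protein named for phosphate metabolism, RTN2 a reticulon that curves tubules of the endoplasmic reticulum, and YGP1 a secreted glycoprotein known from nutrient limitation. MSC1 was named for meiotic recombination between sister chromatids, RTC3 for a screen on telomere capping, and HBT1 for its binding of the ubiquitin-like protein Hub1. YNL195C is an uncharacterized reading frame, and YBR116C is a dubious reading frame that partly overlaps the transketolase gene TKL2.

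MYO1 itself was lower in myo1Δ on all 6 arrays, at -2.11, -1.45, -1.69, -3.53, -1.46 and -2.77 on the log2 scale on arrays 1 to 6. Whether its probe lies within the deleted part is not known here. The spread of the log2 ratios over all genes ran from an SD of 0.669 on array 3 to 1.16 on array 4. The 4 α-specific genes measured were lower in YJR13 than in YJR12 on all 3 arrays, and among them STE3, the a-factor receptor, was -1.61, -0.31 and 0.62 on arrays 4 to 6 in YJR6 over MGD353-46D, both labelled MATα. SAG1, the α-agglutinin, was 0.08, 1.34 and 3.89 on the same arrays.

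All 8 genes were higher in myo1Δ on every array that measured them, with mean log2 ratios of 2.86 (HBT1) to 5.10 (YBR116C), which is 7.24-fold to 34.4-fold. The genes were chosen by these ratios, the mean log2 ratio of myo1Δ over wild type, which are given as a description, with no test read from them. In the limma fit of this comparison 3.47% of all genes were called higher and 3.96% lower at an adjusted p of 0.01. More cells in a given state and more RNA in each cell cannot be told apart in RNA from a whole culture. A further 52 genes had a mean above that of HBT1, 20 of which were annotated as of unknown process.

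Of the membrane and secretory proteins, PHM7 had log2 ratios of 4.07, 5.39 and 1.28 on arrays 1 to 3 (YJR13 over YJR12) and 6.21, 6.17 and 4.40 on arrays 4 to 6 (YJR6 over MGD353-46D), with a mean of 4.59 ± 1.85 (SD, n = 6), 24.0-fold. It held the highest ratio of all genes on array 5 and ranked 198 on array 3. RTN2 had ratios of 3.42, 4.85 and 3.98 on arrays 1 to 3 and 5.66, 2.88 and 4.50 on arrays 4 to 6, with a mean of 4.22 ± 1.00 (SD, n = 6), 18.6-fold. Unlike PHM7, it was not lowest on array 3 and stayed within rank 48 on all 6 arrays. YGP1 had ratios of 2.67, 2.89 and 3.14 on arrays 1 to 3 and 2.78 and 5.28 on arrays 4 and 6, with a mean of 3.35 ± 1.09 (SD, n = 5), 10.2-fold. Its spot on array 5 was marked poor and left out, and the mean with that spot kept was 2.92.

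Among the genes named from screens, MSC1 had log2 ratios of 4.07, 4.81 and 3.60 on arrays 1 to 3 and 6.07, 2.46 and 5.27 on arrays 4 to 6, with a mean of 4.38 ± 1.28 (SD, n = 6), 20.8-fold. It was within the first 86 genes on every array. RTC3, whose product is related to the human ribosome maturation protein SBDS, had ratios of 3.08, 3.48 and 1.49 on arrays 1 to 3 and 4.94, 2.76 and 5.94 on arrays 4 to 6, with a mean of 3.62 ± 1.60 (SD, n = 6), 12.3-fold. HBT1 varied least, with ratios of 1.84, 3.67 and 2.42 on arrays 1 to 3 and 3.48, 3.18 and 2.55 on arrays 4 to 6 and a mean of 2.86 ± 0.70 (SD, n = 6). Its lowest ratio was on array 1, and the strain pairs overlapped in all 3 genes of this kind.

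Of the uncharacterized reading frames, YBR116C had log2 ratios of 4.25, 5.46 and 2.48 on arrays 1 to 3 and 6.99, 5.42 and 6.01 on arrays 4 to 6, with a mean of 5.10 ± 1.56 (SD, n = 6), 34.4-fold, rank 3 of 6255 genes. YNL195C had ratios of 3.38, 4.02 and 1.22 on arrays 1 to 3 and 5.66, 2.73 and 4.20 on arrays 4 to 6, with a mean of 3.53 ± 1.50 (SD, n = 6), 11.6-fold. Both were lowest on array 3, where YNL195C had the lowest rank of any of the 8 genes, 225. The median of the 8 genes was 3.40, 4.42, 2.45, 5.66, 2.88 and 4.89 on arrays 1 to 6, lowest on arrays 3 and 5. Their mean was lowest on arrays 3 and 1, at 2.45 and 3.35, against 3.66 on array 5 (7 genes, without YGP1), where PHM7, YBR116C and HBT1 kept higher ratios than on array 1.

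**Figure D1:**
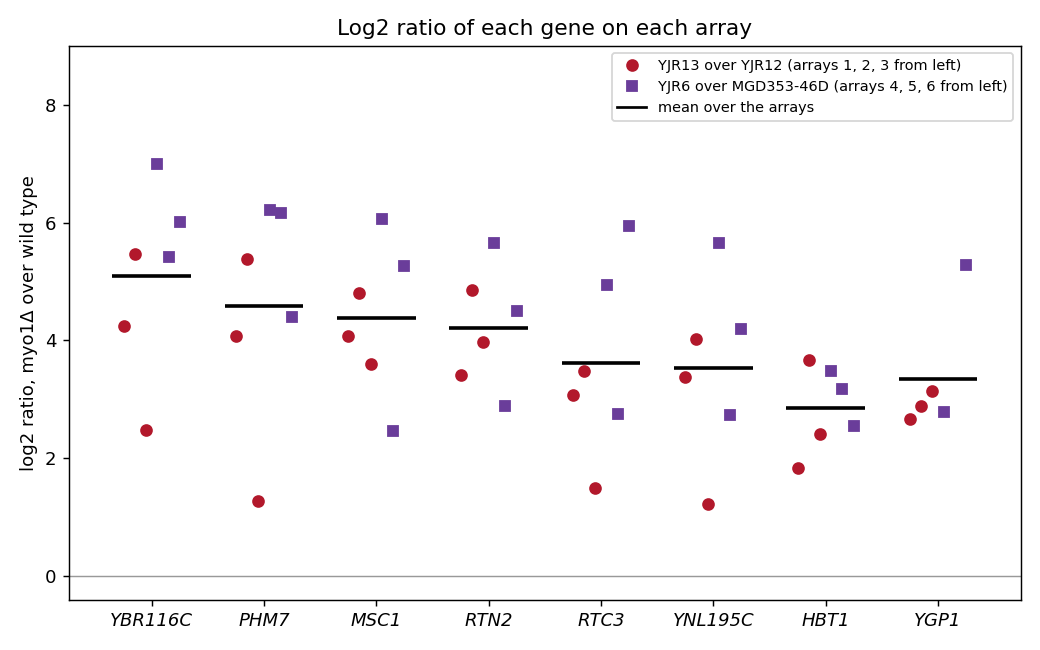
Log2 ratio of myo1Δ over wild type (vertical axis) for each of the 8 genes (horizontal axis) on each array, with circles for YJR13 over YJR12, squares for YJR6 over MGD353-46D and lines for the mean over the arrays. Every point lies above 0, from 1.22 (YNL195C, array 3) to 6.99 (YBR116C, array 4).

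The signals behind these ratios were above the 95th percentile of the negative controls in both channels. For YBR116C the spot mean over local background was 11.7 to 80.7 in the myo1Δ channel and 1.24 to 2.26 in the wild type channel, and for PHM7 it was 4.36 to 44.1 in myo1Δ and 1.11 to 1.30 in wild type. The 95th percentile of the negative controls was 1.09 to 1.12 in Cy3 and 1.02 to 1.04 in Cy5, so that the wild type signal of PHM7 stood little above it. The lowest wild type signals of YNL195C (1.10) and RTC3 (1.13), both on array 1, were also near it. For MSC1 the spot mean over local background was 16.7 to 86.7 in myo1Δ and 1.74 to 13.2 in wild type, the highest wild type value being that of array 5. No spot of the 8 genes was saturated. MSC1, RTC3 and HBT1 had 2 spots each, and the 2 log2 ratios of a gene on 1 array differed by 0.02 to 1.26, the largest for RTC3.

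The strain pairs ask whether the rise was of the same size in both backgrounds. The log2 ratio of YJR13 over YJR12 minus that of YJR6 over MGD353-46D was below 0 for all 8 genes, from -0.27 (RTN2) to -2.08 (YBR116C). The share of all genes below 0 was not taken. For YGP1 the difference was -1.13, and -0.03 with no spot left out. None of the 8 was called at an adjusted p of 0.05 in limma, where 0.0639% of all genes were. For YBR116C the mean ratio was 4.07 ± 1.50 for YJR13 over YJR12 and 6.14 ± 0.79 for YJR6 over MGD353-46D (SD, n = 3 each), and the difference of -2.08 had a 95% interval of -4.03 to -0.12 (limma adjusted p = 0.615). It was the only 1 of the 8 with an unadjusted p under 0.05, as had 473 of all genes. For PHM7 the difference was -2.02 (95% interval -4.69 to 0.66) and for RTC3 -1.87 (-4.09 to 0.36), so that differences of several fold in size were within these intervals. Slides were inferred from image names that arrays share in the file headers. On that basis slides 1 and 3 each held 1 strain pair, and only the slide with arrays 3 and 4 held both. With slide as a block, which rests on those 2 arrays, the difference was -4.51 for YBR116C, -4.93 for PHM7 and -3.46 for RTC3, and no gene of the array was called. The direction for RTN2, HBT1, MSC1, YGP1 and YNL195C turned under some settings, such as scaling between arrays. With that scaling the differences for YBR116C, PHM7 and RTC3 shrank to -0.03, -0.36 and -0.38.

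Levels of single strains were taken from the separate channels, as log2 intensity after quantile normalization of the average intensities between arrays, and compare strains within a gene only. For each of the 8 genes the mean level followed the order YJR6, YJR13, then the wild types, as listed from high to low. All 3 values of both mutants lay above all values of both wild types for 7 genes, as for 4.98% of all genes, which the choice of the genes fixes in part. PHM7 had levels of 10.92, 12.13 and 9.18 in YJR13, against 6.85, 6.74 and 7.90 in YJR12. In YJR6 it had 11.60, 12.47 and 10.30, against 5.39, 6.29 and 5.90 in MGD353-46D. The values of YJR12 and MGD353-46D did not overlap for this gene, the only 1 of the 8, and they differed by 1.30 (SE 0.73, limma adjusted p = 0.628). The same holds for 16.1% of all genes, so that 1 of 8 is near the background. Between the wild types none of the 8 genes was called at an adjusted p of 0.05, and 0.0324% of all genes were. None of the 8 had an unadjusted p under 0.05 there, which 567 of all genes had.

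RTC3 was the only 1 of the 8 for which the mutants did not overlap, as they did not for 13.2% of all genes. It had levels of 10.00, 10.03 and 9.46 in YJR13, against 6.92, 6.55 and 7.98 in YJR12, and of 10.72, 11.06 and 11.89 in YJR6, against 5.78, 8.29 and 5.95 in MGD353-46D. YJR13 minus YJR6 was -1.39 (SE 0.63, 95% interval -2.79 to 0.01, limma adjusted p = 0.547). Between the mutants none of the 8 genes was called and none had an unadjusted p under 0.05, while 0.486% of all genes were called and 565 had such a p. Without normalization between arrays RTC3 was called, at an adjusted p of 0.0482, as were 14.8% of all genes. Dye orientation was tested in the same way. No gene of the array (0%) and none of the 8 was called for a difference between arrays with the mutant in Cy5 and in Cy3, with an unadjusted p under 0.05 for 605 genes and none of the 8.

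**Figure D2:**
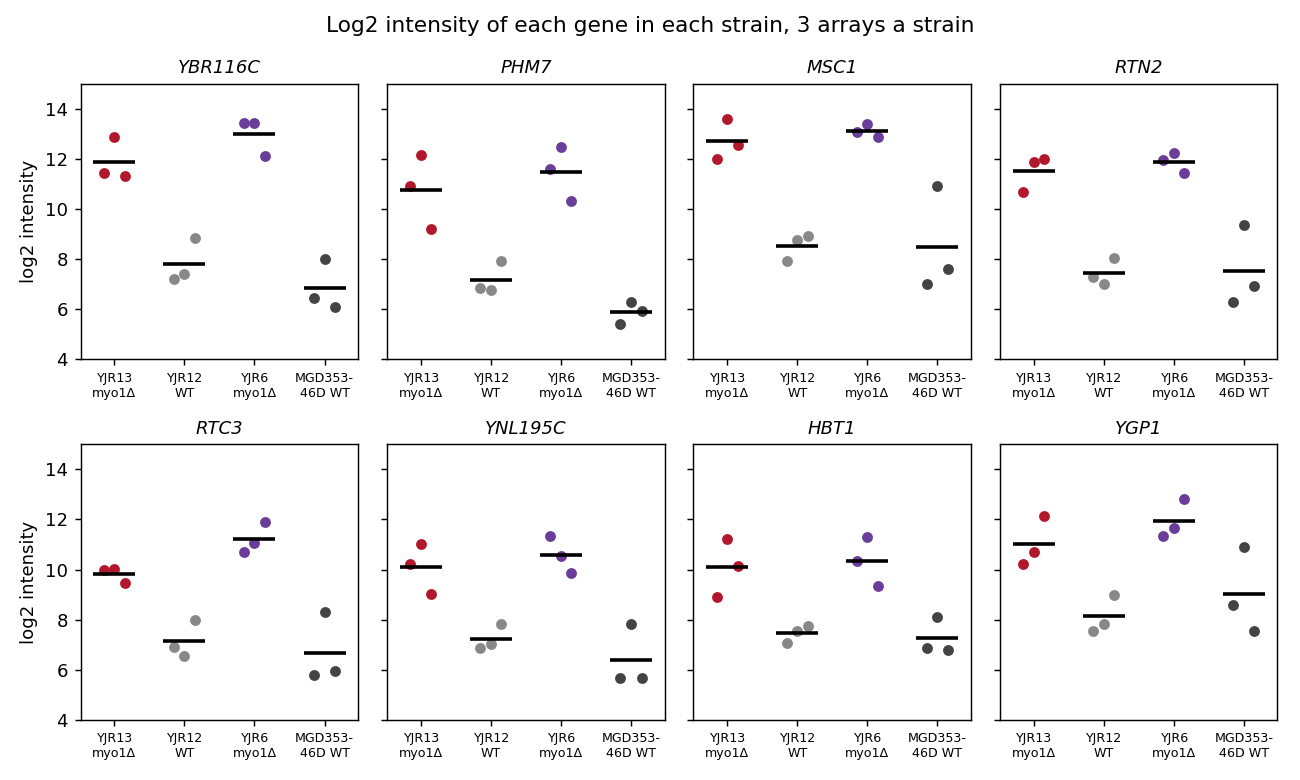
Log2 intensity (vertical axis) of each gene in the 4 strains (horizontal axis), 3 arrays a strain from left to right, with lines for the means. Poor spots were left out except for YGP1, for which no spot was left out. In 7 panels every myo1Δ point lies above every wild type point, and in the YGP1 panel MGD353-46D reaches 10.90, above 10.23 and 10.71 in YJR13.

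On arrays 5 and 3 the wild type samples, whose level is the denominator of the ratio, were themselves high in these genes. In the MGD353-46D sample of array 5 all 8 genes were above their mean on arrays 4 and 6, by 0.64 (PHM7) to 3.60 (MSC1) with a median of 2.28 on the log2 scale, with no spot left out. In the YJR6 sample of the same array 5 of the 8 were above, with a median of 0.51. Over all genes the median was -0.01 in both samples, and 48.9% of genes were above in MGD353-46D. The 8 genes were not alike in this. MSC1 had levels of 13.05, 13.37 and 12.86 in YJR6 on arrays 4 to 6, against 6.98, 10.91 and 7.60 in MGD353-46D. RTN2, with 11.95, 12.23 and 11.44 in YJR6 against 6.29, 9.34 and 6.93 in MGD353-46D, had the same high wild type sample. In PHM7 and HBT1 the wild type of array 5 was higher by 0.64 and 1.27, but YJR6 was higher there too, by 1.54 and 1.47. PHM7 and HBT1 therefore kept their ratios on array 5 (6.17 and 3.18), where MSC1 and RTN2 had their lowest. In the YJR12 sample of array 3 all 8 genes were also above their mean on arrays 1 and 2, by 0.42 (HBT1) to 1.52 (YBR116C) with a median of 1.00. In the YJR13 sample of that array 3 of the 8 were above, with a median of -0.34, from -2.35 (PHM7) to 1.66 (YGP1). For PHM7 and YNL195C the fall in YJR13 (-2.35 and -1.58) was larger than the rise in YJR12 (1.1 and 0.89). Of all genes, 52% were above in YJR12 and 46.8% in YJR13. MGD353-46D was in Cy5 on array 5 and in Cy3 on arrays 4 and 6. YJR12 was in Cy5 on array 2 and in Cy3 on arrays 1 and 3. The part of the dye in these levels was not tested.

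**Figure D3:**
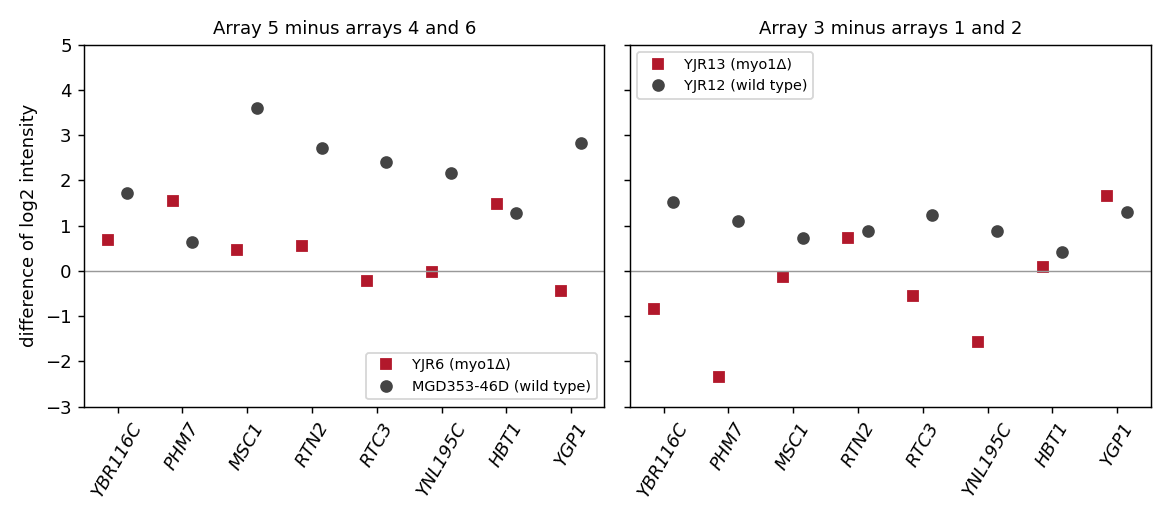
Difference in log2 intensity (vertical axis) between 1 array and the mean of the other 2 of the same strain, for each gene (horizontal axis), with squares for myo1Δ and circles for wild type. Every wild type point lies above 0 in both panels, and MSC1 in MGD353-46D on array 5 is highest at 3.60.

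The relatives of these genes by sequence differed from one another. RTN1, the paralog of RTN2 and the main reticulon of growing cells, was at -0.61, -0.13, -0.19, -0.80, -0.46 and -0.77 on arrays 1 to 6. It was below 0 on all of them, with a mean of -0.49 (SE 0.12, limma adjusted p = 0.0272), so that it did not pass 0.01. RTN1 was under 0.05 in 2 of the 6 fits that leave out 1 array, and its adjusted p with median normalization was 0.146. YOP1, which also shapes tubules of the endoplasmic reticulum, was above 0 on all 6 arrays, with a mean of 0.74 (adjusted p = 0.0139). CSC1, RSN1 and SPO75, which belong to the PHM7 family of putative calcium channels, had means of 0.02, 0.06 and -0.05 and adjusted p-values of 0.688 or more. SPS100, the paralog of YGP1 known from the spore wall, rose on all 6 arrays, at 2.05, 3.90, 1.44, 3.33, 3.83 and 2.19, with a mean of 2.79 (SE 0.36, adjusted p = 0.00423, 6.92-fold). SPS100 was thus closer to YGP1 (3.35) than RTN1 was to RTN2. SPS100 kept its call at 0.01 in 1 of the 6 fits that leave out 1 array, and its adjusted p without array 2 was 0.017. Without background correction it was 0.0138.

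HBT1 and YNL195C are themselves a pair left from the duplication of the yeast genome, and so are the genes next to them. In the reference gene table (assembly R64) FMP45 neighbours HBT1 and YNL194C neighbours YNL195C, and both encode membrane proteins of the Sur7 family, which sits in eisosomes. YNL194C rose, at 1.76, 3.26, 1.07, 5.04, 3.26 and 3.94, with a mean of 3.06 (SE 0.50, limma adjusted p = 0.00786). FMP45 was at 0.71, 2.77, 0.75, 3.34, 3.01 and 3.65, with a mean of 2.37 (SE 0.45, adjusted p = 0.0123), which did not pass 0.01, though without array 3 it did (0.00752). All 4 genes of the 2 neighbour pairs were above 0 on every array, whereas SUR7 itself had a mean of -0.58 (adjusted p = 0.0266).

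TKL2, the minor transketolase of the pentose phosphate pathway, lies next to YBR116C and rose with it, at 2.41, 4.18, 1.51, 5.33, 5.13 and 4.43, with a mean of 3.83 (SE 0.53, limma adjusted p = 0.00476, 14.2-fold). YBR116C had the larger ratio on each of the 6 arrays, and both genes were lowest on array 3 and highest on array 4. The reading frames overlap, the probe positions were not used here, and which transcript each probe reports was not tested. LYS2, on the other side of YBR116C, had a mean of -0.57 (adjusted p = 0.287).

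The neighbours of YBR116C, which the reference table does not list, were taken from the systematic names. Of the 16 neighbours in all, TKL2, YNL194C and HEM3 rose and none fell at an adjusted p of 0.01. HEM3, a heme synthesis enzyme next to RTN2, had a mean of 0.97 (SE 0.14, limma adjusted p = 0.0053), 1.95-fold against 18.6-fold for RTN2. HEM3 has 2 spots, and when each was tested on its own the one with the larger p had a mean of 0.79 (adjusted p = 0.0727), so that the call was lost at 0.05 as well. In that fit YNL194C was at 0.0103, and without background correction TKL2 and YNL194C were at 0.0155 and 0.025, while a dye effect in the model gave 0.0172 for YNL194C. ATG34, a receptor of selective autophagy next to PHM7, had a mean of 1.06 (adjusted p = 0.0104). Means of the other neighbours besides FMP45 lay between -0.57 (LYS2) and 0.64 (SLZ1), and no neighbour of MSC1, RTC3 or YGP1 was called at 0.01. Without array 2 none of TKL2, YNL194C and HEM3 was called at 0.01, with adjusted p-values of up to 0.0308, and only 4 of all genes were then called.

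**Figure D4:**
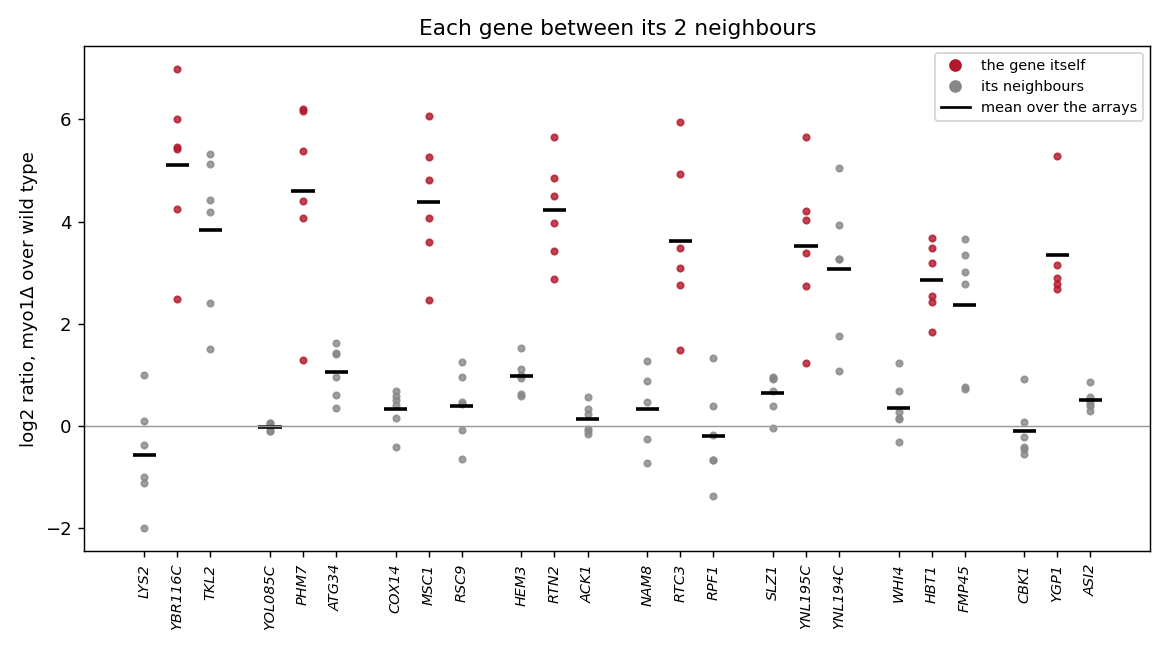
Log2 ratio of myo1Δ over wild type (vertical axis) on each array for each of the 8 genes and the 2 genes beside it (horizontal axis), taken from the reference table or, for YBR116C, from the systematic names, with lines for the means. TKL2, YNL194C and FMP45 have means of 3.83, 3.06 and 2.37, and the other neighbours lie at 1.06 or below.

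Of the lists of genes described here, that of the stress response element programme had the median nearest to that of the 8 genes. The 8 genes were chosen for large rises in this same ratio, which fixes in part which list lies nearest. Of the 24 stress response element genes, 16 rose, none fell and all 24 had a mean above 0. Their median log2 ratio was 3.01 beside 0 over all genes. The members with the smallest p were GRE1, a hydrophilin (3.23), HSP12, a small membrane-binding stress protein (5.19), NTH1, a trehalase (2.41), and ALD3, an aldehyde dehydrogenase (5.37), with limma adjusted p-values of 0.00188, 0.00219, 0.00293 and 0.00295. The list also holds TKL2. Its wild type levels stood out on the same arrays as those of the 8 genes: all 24 were above in MGD353-46D on array 5, with a median of 2.24, and 23 of 24 in YJR12 on array 3. Of all genes, 48.9% and 52% were above in these samples. Without array 2 none of the 24 was called at 0.01 and 19 at 0.05, against 23 at 0.05 with all arrays, and without array 6, 1, 4, 5 and 3 the counts at 0.01 were 1, 4, 4, 14 and 18. In these fits all 24 means stayed above 0, with list medians of 2.61 (without array 4) to 3.17 (without array 3), while the calls over all genes dropped too, to 4 when array 2 was left out and to 18, 86 and 66 when array 6, 1 or 4 was.

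Among 18 regulators of that programme, 5 rose and none fell at 0.01, with a median of 0.72, where 3.47% of all genes rose and 3.96% fell. IRA2, a brake on Ras, had a mean of 1.86 (limma adjusted p = 0.00209), CYR1, adenylate cyclase, 1.36 (0.00332), YAK1, a kinase that acts against protein kinase A, 1.30 (0.00423), and BCY1, the inhibitory subunit of protein kinase A, 0.88 (0.00664). CYR1 raises protein kinase A activity and IRA2 and BCY1 lower it, so that both kinds were among the genes called with all arrays. In the 6 fits that leave out 1 array, IRA2 kept its call at 0.01 in 5, CYR1 in 3, YAK1 in 1 and BCY1 in 0. Each of them stayed under 0.05 in all 6. MSN2 and MSN4 themselves had means of 0.23 and 0.65 and adjusted p-values of 0.702 and 0.0305. Between 0 (without array 2) and 4 of the 18 were called higher when 1 array was left out, and without array 3 RAS1, one of the Ras proteins, was called lower (-1.37, adjusted p = 0.00625).

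Of 8 secreted and cell wall proteins related to YGP1 in place or regulation, 4 rose and none fell at 0.01, with a median of 2.35. Of all genes, 3.47% were called higher. The 4 were HOR7 (3.19), SPS100 (2.79), SPI1 (3.38) and SED1 (1.91), with limma adjusted p-values of 0.00103, 0.00423, 0.00568 and 0.00699. Of the other 4, PIR3 was above 0 on all 6 arrays with a mean of 3.05 (adjusted p = 0.0114), and HSP150, CWP1 and CRH1 had means of 0.11, 0.25 and -0.53. Without array 1, 2, 4 or 6 only 1 of the 8, HOR7, was called, while 5 passed 0.05 in each case. SPI1 kept its call at 0.01 in 2 of the 6 fits that leave out 1 array, SPS100 in 1 and SED1 in 0. With a dye effect in the model SPI1 and SED1 had limma adjusted p-values of 0.0146 and 0.0148.

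The lists that go with the names of the genes held few calls. Of 11 phosphate-regulated genes, the group that gave PHM7 its name, none was called in either direction and the median was -0.21. Without array 3, where PHO89, a phosphate transporter, was at -2.81 and PHM8, a phosphatase, at -0.22, both were called higher at 0.01, with means of 1.77 and 1.13 (limma adjusted p = 0.00599 and 0.00714), and the median stayed at -0.21. None of the 5 other genes named in the telomere capping screen (median 0.26) or the 4 other MSC genes (median 0.12) was called, and HUB1 had a mean of 0.25 (limma adjusted p = 0.363). At an adjusted p of 0.05, which 14.2% of all genes passed as higher and 12.9% as lower, 1 phosphate gene was higher and 2 were lower, 2 MSC genes were higher and 1 lower, and no gene of the telomere capping screen was called. Of 11 genes of growth past glucose exhaustion none was called at 0.01 and 6 were higher at 0.05, with a median of 1.44. They included PCK1, of gluconeogenesis (1.44, adjusted p = 0.0116), and HXT6, a high-affinity hexose transporter (4.54, adjusted p = 0.024), whose near-identical copy HXT7 can share its probes, and without array 3 the count at 0.01 was 5. ADH2, FBP1, SNZ1 and SNO1 of the same list had means of 0.14, 0.22, 0.05 and -0.23 (limma adjusted p = 0.702, 0.209, 0.879 and 0.227). Of 6 histidine synthesis genes HIS7 was lower, at -1.02 (adjusted p = 0.00337), and the others were not called at 0.01, 3 of the 6 being lower at 0.05. HIS7 kept its call at 0.01 in 2 of the 6 fits that leave out 1 array, and its adjusted p without array 2 was 0.0161.

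**Figure D5:**
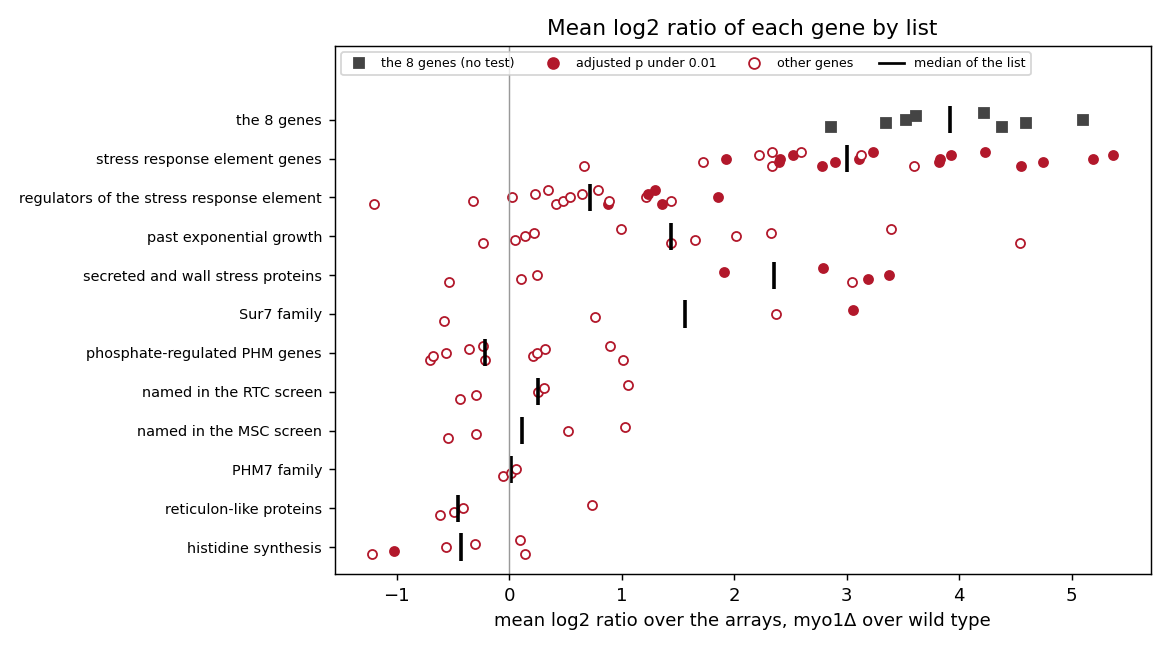
Mean log2 ratio of myo1Δ over wild type (horizontal axis) of each gene by list (vertical axis), with squares for the 8 genes, filled circles for an adjusted p under 0.01, open circles for the other genes and lines for the list medians. The stress response element genes have the median nearest to that of the 8 genes, 3.01 beside 3.92. The 8 genes were chosen for large ratios, which fixes this nearness in part. The PHM7 family and the reticulon-like proteins have medians of 0.02 and -0.45.

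The genes nearest in pattern were found by the root mean square difference of the log2 ratios over the 6 arrays from the mean of the 8 genes, which was 3.35, 4.32, 2.45, 5.22, 3.66 and 4.77 on arrays 1 to 6. The nearest were NQM1, a minor transaldolase (0.800), TKL2 (0.823), DCS2, related to the scavenger decapping enzyme (0.862), USV1, a zinc finger protein (0.928), and GND2, a minor 6-phosphogluconate dehydrogenase (0.959). NQM1, TKL2 and GND2 are the minor isoforms of enzymes of the pentose phosphate pathway. The measure takes in the size of the ratios as well as their pattern. It rests on the ratios by which the 8 genes were chosen. The 8 genes themselves lay at 0.705 (YNL195C) to 1.36 (YGP1) from this mean, which includes them. NQM1 had ratios of 3.02, 4.32 and 2.30 on arrays 1 to 3 and 4.29, 3.33 and 3.11 on arrays 4 to 6.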

How the data were processed

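Spots were quantified by the authors with ImaGene (6.0.0 in the file headers). Per spot, the deposited files give its mean intensity and its median local background. The deposited log2 ratios (Cy5 over Cy3) were matched to the spots by row and recomputed by normexp with an offset of 50 and loess, to within 4.74e-08, and their medians ran from -0.0103 to 0.0191. With limma 3.58.1 in R 4.3.3, background was corrected in that way, ratios were normalized by loess within arrays, poor spots (flag 3, 32 to 192 per array) were left out, signs were turned to myo1Δ over wild type, and spots were averaged per gene. Arrays with the same image name in the headers were taken as 1 slide. The image name in the headers of array 1 is shared with array 2, and the labels were followed for the dyes. The mean log2 ratio was tested against 0 with lmFit and eBayes, over 6255 genes, with Benjamini-Hochberg adjustment at 0.01. The difference between strain pairs, the strain levels (separate-channel model, 6170 genes) and the dye were tested at 0.05. Each model was tested on simulated data. A simulated log2 difference of 2 was called at 0.05 for 63% of the changed genes between strain pairs and 58% for the dye. For the mean log2 ratio it was called for 93%, and between the wild types for 94%. The changed genes were drawn at random from all genes, each simulated with its own SD. These shares therefore do not give the share for the 8 genes, whose ratios had SDs of 0.70 (HBT1) to 1.85 (PHM7). Strains are 3 cultures each, and the number of arrays limits the precision. Gene symbols came from a RefSeq table (R64), which was used for names and neighbours alone. YBR116C kept its name from the array files. The 8 genes, the gene lists and the tests were chosen with earlier results of these data known. Genes were named as the 8 genes, their relatives and neighbours, up to 4 of a list by smallest p, and the 5 nearest in pattern. BCY1, SUR7, MSN2, MSN4, HUB1, HXT6, STE3, SAG1, YOP1, PIR3, PHM8, PHO89, RAS1 and the listed genes near 0 were named after their values were seen. The values of 1 listed gene are not reported here. The alternatives are given in the closing section.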

Additional observations from a re-analysis of the deposited data

Results flagged for a closer look

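YGP1 on array 6, with a log2 ratio of 5.28, stood apart from its other 4 values, which lay between 2.67 and 3.14. The gap was 0.821 of the whole range over 5 arrays. The threshold for such a gap marks about 1 of 20 groups by chance, and 8 genes were looked at. In the same sample pair YJR6 had a log2 intensity of 12.83, against 7.56 in MGD353-46D. Without array 6 the mean of YGP1 was 2.87.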

How the results depend on the processing

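The mean log2 ratio of each of the 8 genes stayed above 0 under all 19 alternatives and moved by less than its SD, lowest without background correction (2.17 for HBT1 to 4.30 for YBR116C) and highest with a normexp offset of 0, except MSC1. Counts moved far more. Against 465 genes called at 0.01, no background correction gave 256, a dye effect in the model 238, plain subtraction 992, an offset of 0 1015, median normalization 704, leaving out every flagged spot 759 and slide as a random block 875. Leaving out 1 array gave 4 (array 2) to 616 (array 3) genes. The strain pair difference called 4 genes, and 9 with an offset of 0, 1 without flagged spots, and 0 with scaling between arrays or slide as a fixed block; none of the 8 was ever called. The difference turned positive for RTN2 and HBT1 with plain subtraction (0.32 and 0.08) and an offset of 0 (0.42 and 0.25), for MSC1, RTN2, HBT1 and YGP1 with median normalization (0.30, 0.43, 0.04 and 0.01), and for MSC1, RTN2, YNL195C, HBT1 and YGP1 with scaling (1.57, 1.66, 0.09, 0.73 and 0.57). Leaving out 1 array, it ran from -1.50 to 0.30 for MSC1, -1.0 to 0.39 for RTN2 and -2.38 to 0.12 for YGP1, and stayed below 0 for the others. Between the wild types 2 genes were called, and 509 without normalization between arrays, 0 without background correction, 13 with an offset of 0, 1 with a dye effect, 4 with no spot left out (chosen after seeing the data) and 0 to 4 without 1 array. Between the mutants 30 were called, and 913, with 1 of the 8 genes, without normalization between arrays, and 4 to 22 without 1 array. The cause was not tested. Each ratio already pairs a mutant with its wild type on 1 array. Wild type signals near background, as for PHM7, YNL195C and RTC3, limit the size of a ratio.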
